A study of Mus musculus with 6 samples.

Results

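Tubulins are the protein subunits of microtubules, and kinesins are the motor proteins that move along or act on them. The rule took every protein-coding gene whose symbol marks it as a tubulin or a kinesin, and found 67 of the 55802 genes in the tables. Of these, 43 were kinesins (14 mitotic, 15 of cargo transport, 6 of cilia and 8 of other or mixed roles), 19 were tubulins (7 alpha, 8 beta and 4 gamma, delta or epsilon), and 5 were Tubgcp2 to Tubgcp6, subunits of the gamma-tubulin ring complex that share the prefix of the gamma-tubulin symbols but are not tubulins themselves. RNA had been sequenced from primary neural stem cells (NSCs) of the subventricular zone (SVZ) of adult C57BL/6 mice, the niche along the lateral ventricles where neurons are still born in the adult. Both groups were grown in a Neurobasal-type medium with B27 and infected for 24 h with an adenovirus: the 3 control libraries are from cells that received a virus carrying only green fluorescent protein (ADV-GFP), and the 3 SETD4 OE libraries from cells that received a virus carrying SETD4 with the same fluorescent protein (ADV-SETD4-GFP). SETD4 belongs to the SET domain family, whose members methylate lysines. By its title, the study deals with SETD4 cells in brain development and adult neurogenesis.

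A microtubule is built from dimers of alpha- and beta-tubulin, each encoded by several genes (isotypes) whose products differ mainly at the C-terminal tail and are used in different mixtures by dividing, neuronal and ciliated cells. Gamma-tubulin, held in its ring complex, starts new microtubules. Mitotic kinesins build, focus and shorten the spindle, carry chromosomes and complete cytokinesis, and their transcripts peak in G2 and M phase, whereas transport kinesins carry vesicles, organelles and messenger RNA and are used by dividing and resting cells alike, most of all by neurons. Kinesins of cilia build or regulate the axoneme and the Hedgehog signal that passes through it.

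Levels are FPKM (fragments or reads per kilobase of gene, scaled to library size). The gene lengths used exceed the longest coding transcript in some members, as in Kif15 (11020 against 4858 bases). In others they do not, as in Kif3b (5635 bases for both). Levels of different genes, and shares or ratios built on them, therefore compare only roughly. The length of a gene was the same in both groups. Recovered depth was 16007182 to 18078717 reads in the control libraries and 14924273 to 16045138 in SETD4 OE. Setd4 was at 0.952, 0.972 and 1.53 FPKM in the controls and at 296, 346 and 333 FPKM in SETD4 OE, in the direction the labels give. Mitochondrially encoded genes took 3.78%, 2.45% and 2.45% of the control reads and 3.66%, 3.73% and 3.52% of the SETD4 OE reads. Markers of stem cells and astrocytes summed to 1094 to 1170.1 FPKM in the controls and 2538 to 2644 FPKM in SETD4 OE, and markers of oligodendrocyte precursors to 1152 to 1288 and 721 to 776 FPKM, so libraries labelled NSCs held transcripts of both. That last sum was lower in SETD4 OE although 5 of the 7 precursor markers were higher and 2 lower, with a median log2 fold change of 1.22. No source says whether the 3 libraries of a group came from separate cultures or animals, so p-values measure the spread between these libraries, which may be technical. In these bulk samples, fewer cells of a type and less RNA per cell cannot be told apart.

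Among the 51 members that averaged 1 FPKM or more over the 6 libraries, 41 passed limma's test at a Benjamini-Hochberg adjusted p under 0.05, 13 of them higher and 28 lower in SETD4 OE. Of all 12994 genes tested, 60.0% passed, 26.0% higher and 33.9% lower, so the members' overall count must be read against a transcriptome in which most genes passed. The values of the 3 SETD4 OE libraries lay outside the range of the 3 controls for 43 members, and the same held for 66.0% of all tested genes. Fold changes are given on the log2(FPKM + 1) scale, where the added 1 shrinks the changes of genes with low levels. The members' median log2 fold change was -0.25, against -0.06 over all tested genes. By class, 13 of 13 tested mitotic kinesins were lower, 6 of 14 tested transport kinesins were higher and 5 lower, and of 13 tested tubulins 3 were higher and 7 lower. Of the 51 tested members, 5 (Kif14, Kif15, Kif9, Kif19a and Kifc2) reached the minimum only through the group where they were high, and the counts that hold them are descriptions. In the plot of fold changes by class, the mitotic kinesins ran from -1.50 to -0.75 around a median of -1.29, and the transport kinesins from -0.76 to 0.77 around a median of -0.03. Of the transport kinesins only Kif3c reached the range of the mitotic kinesins.

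**Figure D1:**
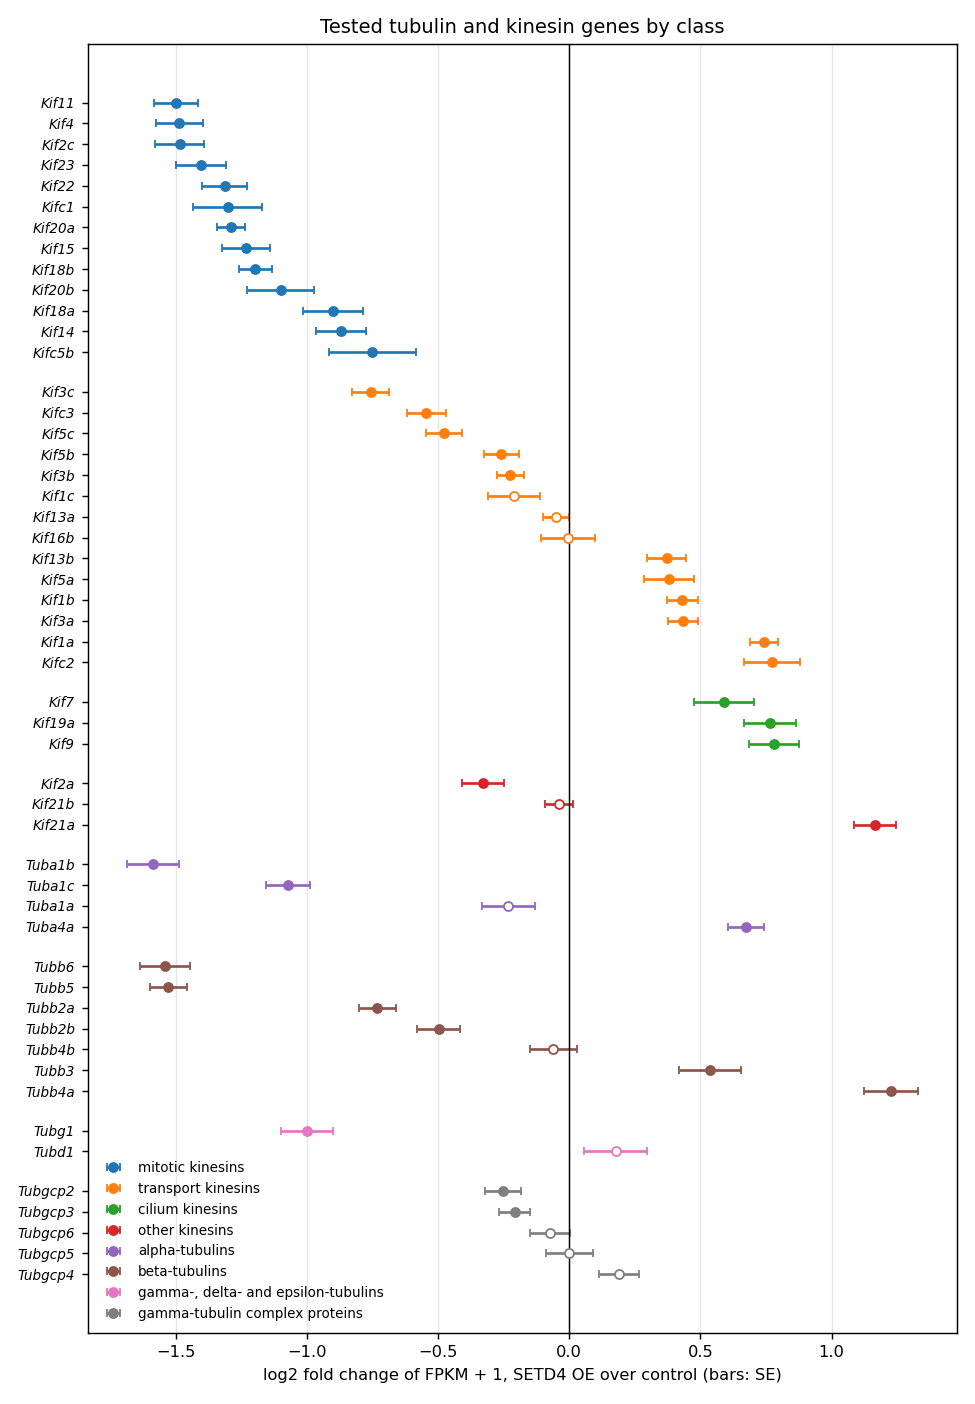
Log2 fold change of FPKM + 1 (SETD4 OE over control, horizontal axis) for the 51 tested members, grouped and coloured by class; points are limma estimates from 3 libraries per group, bars are standard errors, filled points passed the test and open points did not. The 13 tested mitotic kinesins lie between -1.50 and -0.75, the 14 tested transport kinesins between -0.76 and 0.77.

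The promoters of the mitotic kinesins are shown first, since many genes with a G2 and M phase peak carry a cell cycle genes homology region (CHR), a short element bound by the DREAM and MuvB complexes, close to the transcription start and downstream of CCAAT boxes, which NF-Y binds. The windows below run from 70 bases before to 30 bases from the RefSeq start on (build GRCm38.p6, an earlier build than that of the tables), 5′ to 3′ on the strand of the gene. Capitals mark the CHR hexamer TTTGAA or its reverse complement TTCAAA, and the CCAAT box or its reverse complement ATTGG. The 5 mitotic kinesins shown are Kif11 (chr19:37376312-37376411, plus strand), Kif22 (chr7:127042391-127042490, minus strand), Kif18b (chr11:102925095-102925194, minus strand), Kif23 (chr9:61946770-61946869, minus strand) and Kif4 (chrX:100625995-100626094, plus strand), chosen because both elements lie in the window, as they also do in Kifc1. The transport kinesins Kif3a (chr11:53567299-53567398, plus strand) and Kif1c (chr11:70700478-70700577, plus strand) follow for comparison, the first with 1 CCAAT box and the second with neither element.
Kif11: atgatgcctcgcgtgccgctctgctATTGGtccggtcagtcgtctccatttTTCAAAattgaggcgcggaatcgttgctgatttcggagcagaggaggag
Kif22: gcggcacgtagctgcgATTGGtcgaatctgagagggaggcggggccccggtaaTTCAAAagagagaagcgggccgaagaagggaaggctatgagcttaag
Kif18b: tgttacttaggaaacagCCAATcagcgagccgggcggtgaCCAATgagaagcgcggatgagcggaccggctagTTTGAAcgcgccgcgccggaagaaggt
Kif23: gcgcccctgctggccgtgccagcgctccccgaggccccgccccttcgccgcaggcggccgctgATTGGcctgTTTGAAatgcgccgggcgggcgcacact
Kif4: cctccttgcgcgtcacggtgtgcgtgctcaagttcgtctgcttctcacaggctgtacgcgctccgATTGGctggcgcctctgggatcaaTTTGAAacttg
Kif3a: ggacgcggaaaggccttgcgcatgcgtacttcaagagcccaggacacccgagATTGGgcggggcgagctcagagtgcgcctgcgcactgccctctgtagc
Kif1c: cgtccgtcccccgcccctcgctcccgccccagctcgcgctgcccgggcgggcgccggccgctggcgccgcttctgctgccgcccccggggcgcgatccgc

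The CHR hexamer began at position -19 in Kif11, -17 in Kif22, 4 in Kif18b, 3 in Kif23 and 20 in Kif4, counted from the RefSeq start with no position 0. Over the 300 bases of each RefSeq entry (250 before the start, 50 from it on) and both strands, TTTGAA was present in 11 of the 13 mitotic kinesins with an entry (84.6%), in 8 of them (61.5%) within the printed window. It was present in 1 of the 10 transport kinesins with an entry, Kif1a, which is not shown above. There it began at position -44, also within the span of the printed window. The hexamer occurred in 17.9% of all 32851 promoters in the table, and in 13.6% of the 9312 tested genes with an entry. For the printed window these shares were 5.11% and 3.58%. A CCAAT box was present in 9 of 13 mitotic kinesins (69.2%) and 3 of 10 transport kinesins, against 43.7% of tested genes. The mitotic kinesins with an entry but no hexamer were Kif18a, which was lower in SETD4 OE, and Kif2b, which had 0 reads in every library. A match describes the letters of the window, not a bound site. An entry was found for 53 of the 67 members. Kifc1 and Kifc5b are near-identical copies, so their matches are not independent.

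**Figure D2:**
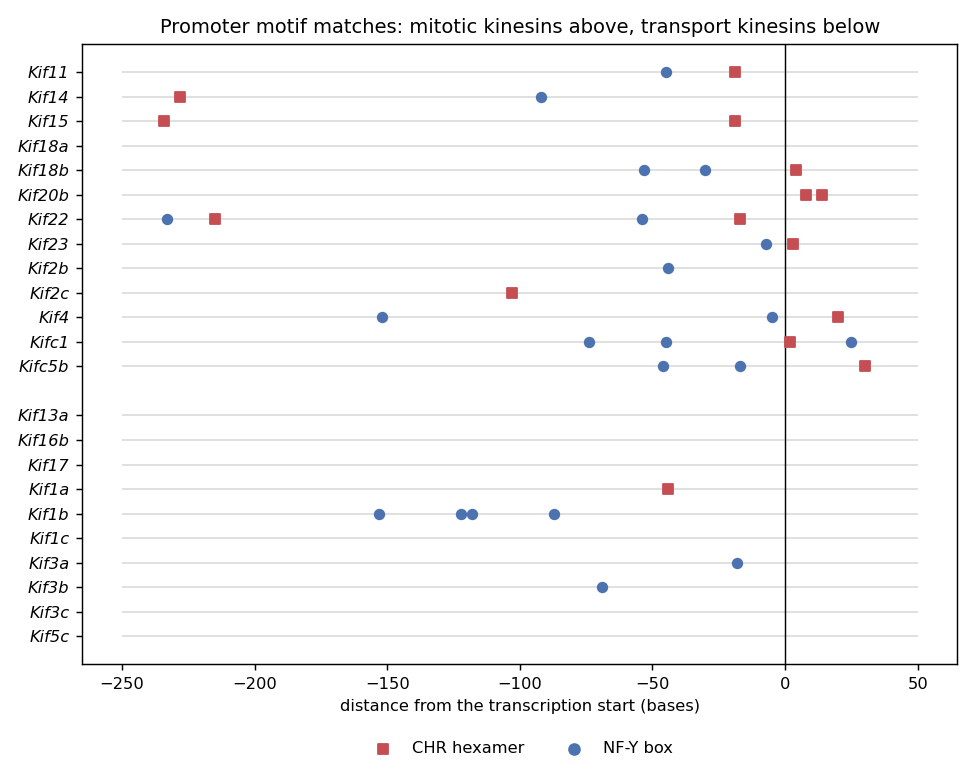
Distance of each CHR hexamer (red squares) and NF-Y box (the CCAAT pentamer, blue circles) from the RefSeq transcription start, in bases, for the 13 mitotic and 10 transport kinesins with a promoter entry; grey lines span the 300 bases searched on both strands. Hexamers stand on the lines of 11 mitotic kinesins, mostly near the start, and of 1 transport kinesin.

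All 13 tested mitotic kinesins fell. Kif2a, which acts at spindle poles and in neurites, was listed with the other kinesins at a log2 fold change of -0.33. The count and range of the mitotic class depend on that placement. Kif11, the plus-end motor that slides antiparallel microtubules to separate the spindle poles (ENSMUSG00000012443, mm39 chromosome 19, 37364851 to 37410307, plus strand), was at 12.5, 11.0 and 11.3 FPKM in the controls and at 3.14, 3.92 and 3.31 FPKM in SETD4 OE. Every SETD4 OE library was below every control, and the log2 fold change was -1.50 (SE 0.08, limma adjusted p = 1.18e-05). Kif4, a chromosome-bound motor that organises the anaphase midzone (ENSMUSG00000034311, chromosome X, 99669343 to 99770820, plus strand), was at 8.29, 8.06 and 7.81 FPKM and then at 2.29, 2.58 and 1.87 FPKM. The groups did not overlap, with a log2 fold change of -1.49 (SE 0.09, limma adjusted p = 1.5e-05). Its gene body overlaps Pdzd11, and with the strand setting not known, reads in the overlap may belong to either gene.

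Kif2c, which depolymerises microtubules at kinetochores (ENSMUSG00000028678, chromosome 4, 117016836 to 117039836, minus strand), was at 6.22, 8.0 and 7.38 FPKM in the controls and 1.90, 1.80 and 2.06 FPKM in SETD4 OE. The lowest control stood above the highest SETD4 OE library, and the log2 fold change was -1.48 (SE 0.09, limma adjusted p = 1.88e-05). Kif23, the motor subunit of the centralspindlin complex of cytokinesis (ENSMUSG00000032254, chromosome 9, 61823187 to 61854056, minus strand), was at 5.41, 4.58 and 4.37 FPKM and then at 1.06, 1.34 and 1.16 FPKM. The groups were again apart, with a log2 fold change of -1.40 (SE 0.10, limma adjusted p = 2.6e-05). Kifc1, a minus-end motor that focuses spindle poles, had the highest mean level of the class, at 10.5, 15.0 and 14.6 FPKM in the controls and 5.12, 4.41 and 4.76 FPKM in SETD4 OE. Control replicate 1 was the lowest control and still above all SETD4 OE libraries (log2 fold change -1.30, SE 0.13, limma adjusted p = 0.000155). Of the 50-base stretches of its transcripts, 47.6% also occur in transcripts of other genes, chiefly Kifc5b, so the split of reads between these copies is uncertain.

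The other 8 mitotic kinesins that passed fell by 0.75 to 1.31 on the log2 scale, and none had overlapping groups. Among them were Kif20a and Kif20b, which act in cytokinesis (log2 fold changes -1.29 and -1.10), Kif22, a chromosome-arm motor (-1.31), Kif15, which works beside Kif11 on spindle bipolarity (-1.23), Kif18a and Kif18b, which limit microtubule growth (-0.90 and -1.20), and Kif14, a midbody motor (-0.87). As ratios of mean FPKM, controls exceeded SETD4 OE by 2.03-fold for Kifc5b to 4.12-fold for Kif15, and the median mitotic kinesin stood at 32.0% of its control level. A log2 fold change below -1 was found for 10 of the 13, against 4.78% of all tested genes. The class median was -1.29, and 294 of the 12994 tested genes were at or below it. Kif14 and Kif15 passed the filter on low values only through the controls. Restricted to the 11 mitotic kinesins that averaged 1 FPKM or more in each group, all 11 were lower and the median was -1.30. Kif20a overlaps Cdc23 and Kif18a overlaps Mettl15, with the same limit as for Kif4.

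The transport kinesins moved in both directions and by less. Kif1a, which carries synaptic vesicle precursors (ENSMUSG00000014602, mm39 chromosome 1, 92943186 to 93029673, minus strand), was at 30.7, 31.2 and 32.0 FPKM in the controls and 55.5, 52.4 and 51.2 FPKM in SETD4 OE. All SETD4 OE libraries were above all controls, with a log2 fold change of 0.74 (SE 0.05, limma adjusted p = 3.38e-05). Kifc2, a minus-end motor of dendrites and axons, was at 1.00, 1.03 and 0.799 FPKM and then at 2.69, 2.06 and 2.21 FPKM (log2 fold change 0.77, SE 0.11, limma adjusted p = 0.000717). Its groups did not overlap, but it passed the filter only through SETD4 OE and it overlaps Cyhr1. Kif1b (log2 fold change 0.43) and Kif13b (0.37), which carry mitochondria, synaptic vesicle precursors or membrane cargo, and Kif5a (0.38), the neuronal form of conventional kinesin, also rose.

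Kif3c, a partner of Kif3a in a neuronal heterodimeric motor (ENSMUSG00000020668, chromosome 12, 3415132 to 3456494, plus strand), was at 15.0, 16.1 and 16.5 FPKM in the controls and 9.33, 8.19 and 9.53 FPKM in SETD4 OE. The groups were apart, and the log2 fold change was -0.76 (SE 0.07, limma adjusted p = 0.000112). Kifc3, a minus-end motor of adherens junctions and Golgi positioning, was at 13.0, 14.4 and 14.4 FPKM and then at 9.40, 8.45 and 9.89 FPKM, without overlap (-0.54, SE 0.07, limma adjusted p = 0.000637). Kif3c overlaps 1110002L01Rik. Kif5b, the ubiquitous conventional kinesin and the most abundant kinesin in the controls, was at 57.7, 50.7 and 52.5 FPKM and then at 43.1, 46.7 and 44.2 FPKM. The groups were separated by a narrow gap, with a log2 fold change of -0.26 (SE 0.07, limma adjusted p = 0.0128), and the call was lost under 5 alternatives. Kif5c, the other neuronal conventional kinesin, fell by 0.48 on the log2 scale, while Kif1c (-0.21, adjusted p = 0.108), Kif13a (-0.05) and Kif16b (-0.00) did not pass limma's test and had overlapping groups. Kif17, a dendritic motor, was below the filter at means of 1.01 and 0.684 FPKM.

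**Figure D3:**
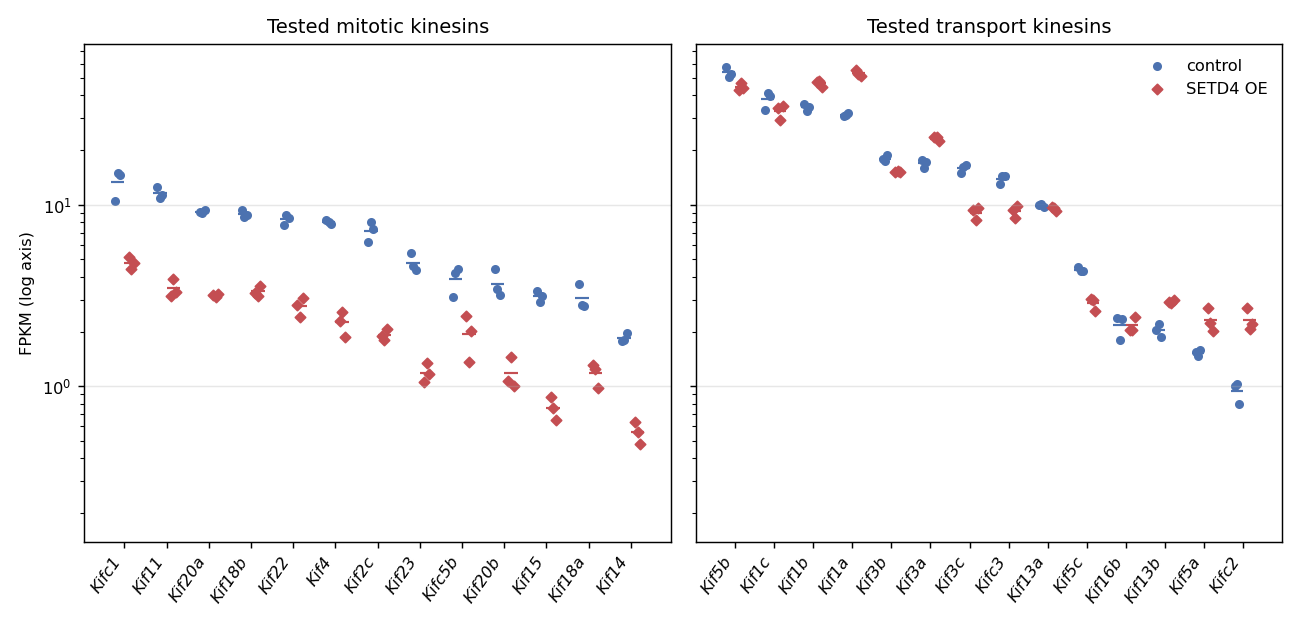
FPKM (log axis) of the 13 tested mitotic kinesins (left) and the 14 tested transport kinesins (right), ordered by control mean; blue circles are the 3 control libraries, red diamonds the 3 SETD4 OE libraries, and short lines the group means. Every mitotic kinesin has all SETD4 OE libraries below all controls, while the transport kinesins lie on both sides.

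Within the Kif3 family, whose Kif3a subunit pairs with Kif3b or Kif3c, the subunits went apart. Kif3a was at 17.6, 15.9 and 17.2 FPKM in the controls and 23.6, 23.5 and 22.4 FPKM in SETD4 OE, a gain of 0.43 on the log2 scale. Kif3b was lower (-0.22), a call lost under equal sums, upper quartile and quantile scaling. The ratio of Kif3a to Kif3b was 0.988, 0.916 and 0.920 in the controls and 1.55, 1.53 and 1.48 in SETD4 OE. The ratio of Kif3a to Kif3c was 1.17, 0.986 and 1.04 and then 2.53, 2.87 and 2.35. Neither ratio overlapped between groups. Kifap3, the adaptor of the Kif3 motor, was higher at a log2 fold change of 0.32 (named after its values were seen).

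Summed over the class, mitotic kinesin FPKM went from 87.0 ± 1.5 to 28.4 ± 0.572 (SD, n = 3 each), or 32.7% of control, and transport kinesin FPKM from 244 ± 3.25 to 257 ± 4.43, or 105% of control. All kinesins together held 371 ± 4.26 and 338 ± 6.83 FPKM, or 91.1% of control. The summed FPKM of all tested genes was itself 90.8% of control, and these percentages are to be read against that. Mitotic kinesins were 23.0%, 24.1% and 23.3% of all kinesin FPKM in the controls and 8.42%, 8.40% and 8.44% in SETD4 OE. Transport kinesins were 65.7%, 65.9% and 66.1% and then 75.7%, 76.2% and 76.1%. The ratio of transport to mitotic kinesin FPKM was thus 2.85, 2.74 and 2.83 in the controls and 9.0, 9.07 and 9.01 in SETD4 OE. These sums and ratios carry no test, since the classes were drawn up with the results known. Their size also depends on the gene lengths used, which were the same in both groups. As the plot of kinesin levels shows, the kinesins of highest FPKM in these libraries were transport motors in both groups. The highest control mean of a mitotic kinesin was 13.3 FPKM, for Kifc1.

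Mitotic kinesins moved with the markers of proliferation. All 12 listed proliferation markers were lower, against 33.9% of all tested genes. Their summed level ran from 315 to 323 FPKM in the controls and from 89.7 to 92.8 FPKM in SETD4 OE (28.6% of control), and no marker was at 0. Mki67, the Ki-67 antigen, went from a mean of 26.8 to 8.18 FPKM. As summed FPKM, the fall of the mitotic kinesins, to 32.7% of control, was close in size to that of the markers. By median log2 fold change the markers fell more, at -1.86 against -1.29 for the mitotic kinesins. Whether the fall of the mitotic kinesins differs from what the share of cycling cells alone would give was not tested.

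Of the 6 kinesins placed in the cilium class, 3 reached the minimum to be tested and were higher, 2 of them only because of their SETD4 OE values. Kif3a, Kif3b and Kif17 were listed with the transport kinesins and are not counted here, so the count holds for this class only. Kif9, a motor of the central apparatus of motile cilia, was at 0.610, 0.608 and 0.483 FPKM in the controls and 1.69, 1.77 and 1.61 FPKM in SETD4 OE (log2 fold change 0.78, SE 0.10, limma adjusted p = 0.000408). Kif19a, which controls the length of motile cilia, was at 0.875, 0.741 and 1.00 FPKM and then at 1.99, 2.40 and 2.15 FPKM (0.77, SE 0.10, adjusted p = 0.000541, limma). Neither had overlapping groups, and these are the pair that passed the filter only through SETD4 OE. Kif7, the scaffold of the Hedgehog pathway at the tip of the primary cilium, was at 3.30, 3.70 and 3.65 FPKM and then at 6.75, 4.76 and 6.18 FPKM, without overlap (0.59, SE 0.11, limma adjusted p = 0.00348). It overlaps Ticrr, a replication gene, on the deposited coordinates. Of the untested members, Kif27, a Kif7 relative of motile cilia, averaged 0.276 and 0.935 FPKM, and Kif6, a motor of ependymal cilia, 0.183 and 0.583 FPKM. Both were called higher when no filter on low values was applied. Kif24, which restrains assembly of the primary cilium in cycling cells, averaged 0.880 and 0.523 FPKM and was not called in that fit.

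Markers of ependymal cells, which carry motile cilia along the ventricle, moved in the same direction. All 6 tested ependymal markers of the 10 listed were higher, against 26.0% of all tested genes. The summed level of the list ran from 21.1 to 23.6 FPKM in the controls and from 47.3 to 58.6 FPKM in SETD4 OE. Of the 6 tested, 2 passed the filter only through SETD4 OE, and 1 of the 2, Tmem212 (named after its values were seen), was not called without a filter (limma adjusted p = 0.121). Foxj1, the master regulator of motile cilia, averaged 15.8 and 35.0 FPKM (log2 fold change 1.09). The part of ependymal cells in the cilium kinesin values was not tested.

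The remaining kinesins split. Kif21a, which dampens microtubule growth at the cell cortex and in axons (mm39 chromosome 15, 90817479 to 90934151, minus strand), was at 8.29, 6.76 and 7.83 FPKM in the controls and 19.3, 18.1 and 17.6 FPKM in SETD4 OE. The groups were far apart, with a log2 fold change of 1.17 (SE 0.08, limma adjusted p = 2.63e-05), the highest of all kinesins tested. Its relative Kif21b was at means of 12.6 and 12.3 FPKM with overlapping groups. Kif2a, a depolymerase of spindle poles and neurites, was at 13.1, 10.5 and 11.3 FPKM and then at 9.03, 9.25 and 8.82 FPKM. Its groups did not overlap (log2 fold change -0.33, SE 0.08, limma adjusted p = 0.0103), the call was lost under equal sums, upper quartile and quantile scaling, and it overlaps Dimt1.

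Of the 4 alpha-tubulins tested, 2 were lower, 1 was higher and 1 did not pass. Over all tested genes, 33.9% were lower and 26.0% higher. Tuba1a, the main alpha isotype of the developing brain and the most abundant member of all, was at 587, 552 and 556 FPKM in the controls and 419, 534 and 496 FPKM in SETD4 OE. The groups did not overlap, but the test was not passed (log2 fold change -0.23, SE 0.10, limma adjusted p = 0.0840). Tuba1b, a broadly expressed isotype of dividing cells (mm39 chromosome 15, 98829306 to 98832446, minus strand), was at 299.5, 324 and 320.3 FPKM and then at 90.7, 106 and 117 FPKM, far below the controls in every library (-1.59, SE 0.10, limma adjusted p = 1.71e-05). Tuba1c, from the same gene cluster, was at 35.5, 35.6 and 36.8 FPKM and then at 14.5, 17.4 and 18.2 FPKM, also without overlap (-1.07, SE 0.09, limma adjusted p = 5.13e-05). Tuba4a, an isotype of platelets and mature neurons, went the other way, from 5.72, 5.57 and 6.37 FPKM to 9.46, 10.5 and 10 FPKM (0.67, SE 0.07, limma adjusted p = 0.000152). Its SETD4 OE libraries were all above the controls, and it overlaps Stk16. Of the remaining alpha isotypes, Tuba8 was below the filter, and Tuba3a and Tuba3b had 0 reads in all 6 libraries.

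The 3 Tuba1 genes are close copies, and this limits how their values can be read. Of the 50-base stretches of their transcripts, 73.8% (Tuba1b), 72.9% (Tuba1a) and 61.0% (Tuba1c) also occur in transcripts of other genes, so the split of reads among them is uncertain. Tuba1a and Tuba1b also overlap Gm49450. Similar sharing was found for Tubb4b (50.9%), Tubb2a (49.6%), Tubb2b (39.3%) and Tubg1 (14.1%), and 12 of the 67 members shared at least 5% of their stretches. Tubb5, Tubb6, Tubb3, Tubb4a and Tuba4a were under that mark.

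Of the 7 beta-tubulins tested, 4 were lower and 2 higher, where 33.9% of all tested genes were lower and 26.0% higher. Tubb6, a broadly expressed beta isotype, was at 81.2, 99.7 and 96.8 FPKM in the controls and 30.6, 29.0 and 33.8 FPKM in SETD4 OE, wholly below (log2 fold change -1.54, SE 0.10, limma adjusted p = 1.73e-05). Tubb5, the widely expressed isotype of neural progenitors (ENSMUSG00000001525, mm39 chromosome 17, 36144813 to 36149198, minus strand), was the most abundant beta-tubulin in the controls, at 402, 435 and 418 FPKM, and stood at 135, 148 and 151 FPKM in SETD4 OE. Its groups were as clearly apart (-1.53, SE 0.07, limma adjusted p = 5.74e-06). Tubb2a was at 222, 253 and 236 FPKM and then at 135, 145 and 147 FPKM (-0.73, SE 0.07, limma adjusted p = 0.000129), again with no overlap. Tubb2b, needed for migration of cortical neurons, fell by 0.50 on the log2 scale. Tubb4b, an isotype of cilia and of most tissues, averaged 177 and 170.0 FPKM with overlapping groups (-0.06, adjusted p = 0.588, limma).

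The rising beta isotypes were low in the controls. Tubb4a, the brain isotype found in oligodendrocytes and neurons (ENSMUSG00000062591, chromosome 17, 57387066 to 57394782, minus strand), was at 7.26, 8.09 and 6.04 FPKM in the controls and 18, 19.3 and 16.5 FPKM in SETD4 OE. All 3 SETD4 OE libraries were above the controls, and its log2 fold change of 1.23 (SE 0.10, limma adjusted p = 6.72e-05) was the highest among the tested members. Tubb3, the class III isotype used as a marker of young neurons, went from 4.95, 5.78 and 6.26 FPKM to 7.19, 9.30 and 9.58 FPKM (0.54, SE 0.12, limma adjusted p = 0.00663), with no overlap. Tubb1, of platelets, was below the filter.

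Markers of other cell types stand beside these isotypes as follows. All 6 tested of 8 oligodendrocyte markers were higher, with sums of 43.3 to 46.5 FPKM in the controls and 85.0 to 92.4 FPKM in SETD4 OE, and 2 of the 6 passed the filter only through SETD4 OE. Of 12 neuron markers 6 were tested, 2 of them higher and 2 lower, the lower pair having passed the filter only through the controls. Their sums were 25.1 to 29.8 FPKM and 24.8 to 25.8 FPKM, with Rbfox3 (means of 0.0938 and 0.236 FPKM) and Snap25 (0.474 and 0.460 FPKM) near 0 in both groups. Of 9 neuroblast markers 7 were tested, 2 higher and 3 lower, 1 of each direction having passed the filter through a single group, with sums of 122 to 131 and 95.8 to 107 FPKM. Of the 10 stem cell and astrocyte markers 8 were higher and 1 lower. These marker counts stand against 26.0% of all tested genes called higher and 33.9% called lower. The part of these cells in the values of Tubb4a, Tubb3, Tuba4a and Kif1a was not tested.

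As shares of their pools, the isotypes shifted without exchange of the leading alpha gene. Tuba1a was 61.3% ± 1.68 of alpha-tubulin FPKM in the controls and 78.5% ± 1.25 in SETD4 OE, and Tuba1b was 34.1% ± 1.62 and 17.0% ± 1.13 (SD, n = 3). In the beta pool, Tubb5 went from 34.9% ± 0.941 to 20.6% ± 0.813 and Tubb4b from 14.7% ± 0.235 to 24.2% ± 1.13. By FPKM, Tubb5 led in the controls and Tubb2b, at 26.5%, in SETD4 OE. Given the shared stretches and the gene lengths used, the order of Tubb2b and Tubb4b in SETD4 OE is uncertain. So is the split between Tuba1a and Tuba1b. Tubb4a made up 0.594% of beta-tubulin FPKM in the controls and 2.57% in SETD4 OE, and Tubb3 0.471% and 1.24%. Summed FPKM was 66.7% of control for the alpha-tubulins and 58.3% for the beta-tubulins. All tubulins together went from 2159 ± 76.0 to 1337 ± 93.2 FPKM, or 61.9% of control, where all tested genes summed to 90.8%. The groups were apart for the shares named here. The isotypes that rose together held a small part of their pools in both groups.

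**Figure D4:**
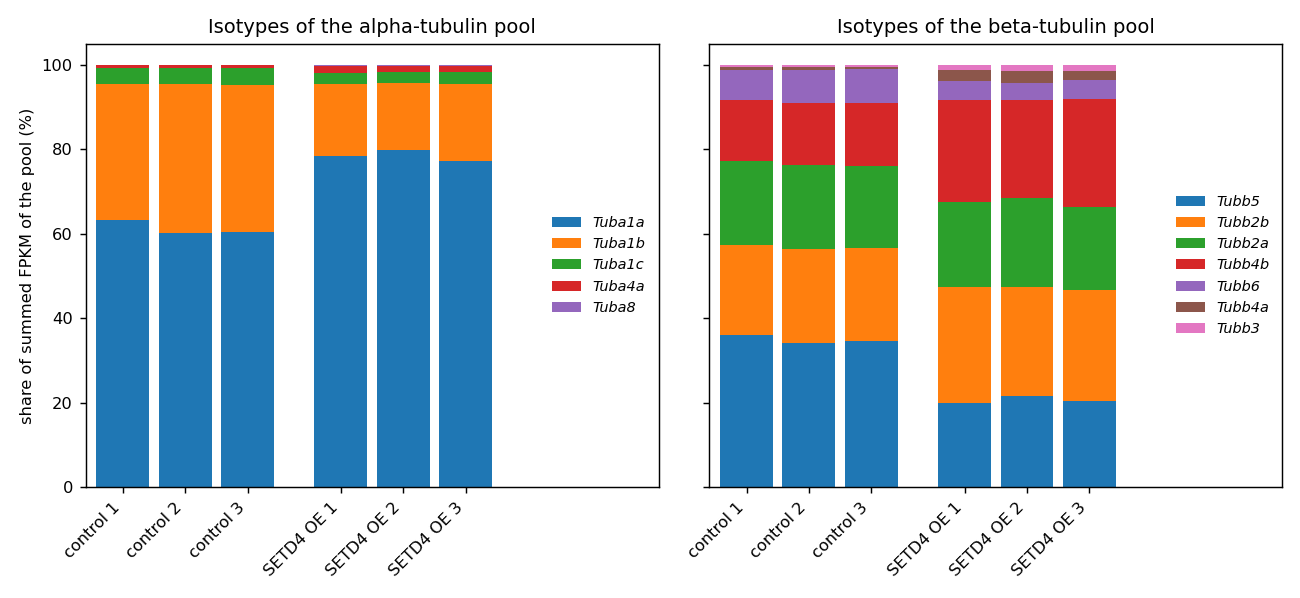
Share of summed FPKM (%) of each alpha-tubulin gene (left) and beta-tubulin gene (right) in each of the 6 libraries, as stacked bars. Tuba1b shrinks from a mean of 34.1% to 17.0% of the alpha pool and Tubb5 from 34.9% to 20.6% of the beta pool.

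Of the nucleating tubulins, Tubg1, the main gamma-tubulin of proliferating cells, was at 26.0, 33.9 and 30.2 FPKM in the controls and 15.5, 13.6 and 14.3 FPKM in SETD4 OE. The groups were apart, with a log2 fold change of -1.0 (SE 0.10, limma adjusted p = 0.000146). Its close copy Tubg2, the gamma-tubulin of brain, averaged 0.516 and 0.628 FPKM and was below the filter, as was Tube1 of the centriole. Tubd1, also of the centriole, did not pass (0.18). The ring complex proteins moved little: Tubgcp2 was at 13.0, 13.8 and 15.0 FPKM and then at 11.0, 12.2 and 11.3 FPKM (-0.25, SE 0.07, limma adjusted p = 0.0154). Tubgcp3 was at 8.0, 7.75 and 7.51 FPKM and then at 6.25, 6.92 and 6.59 FPKM (-0.21, SE 0.06, limma adjusted p = 0.0185). Neither gene's groups overlapped, but Tubgcp2 lost its call under 5 and Tubgcp3 under 7 of 15 alternatives. Tubgcp4, Tubgcp5 and Tubgcp6 did not pass, at log2 fold changes from -0.07 to 0.19. Tubgcp2 overlaps Zfp511, Tubgcp4 overlaps Trp53bp1 and Zscan29, and Tubgcp6 overlaps Selenoo.

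**Figure D5:**
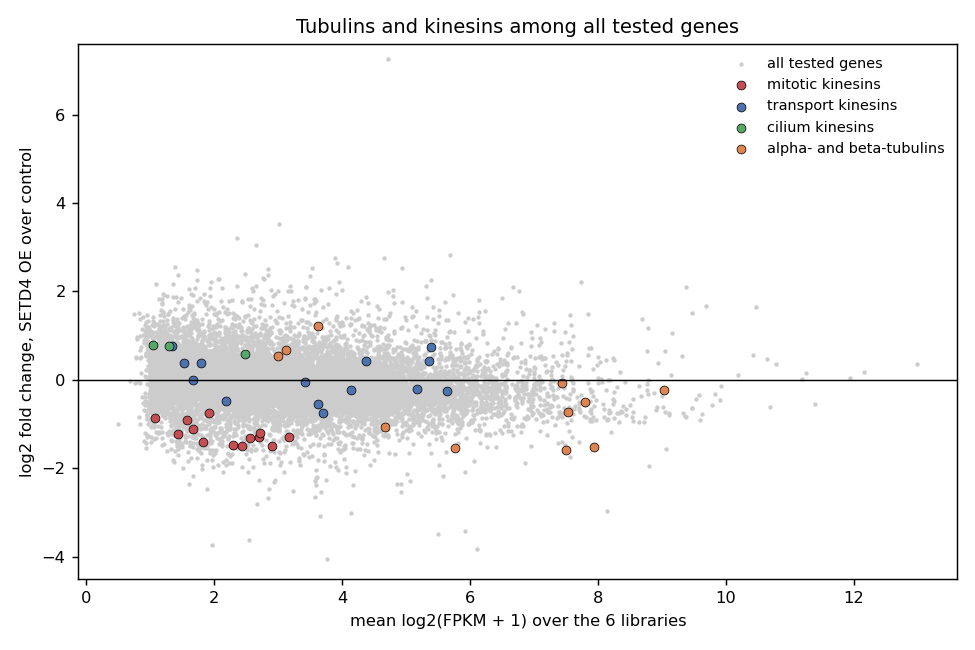
Log2 fold change (SETD4 OE over control) against mean log2(FPKM + 1) over the 6 libraries for all 12994 tested genes (grey), with mitotic, transport and cilium kinesins and alpha- and beta-tubulins in colour. The mitotic kinesins lie low in the cloud, with a median of -1.29 against -0.06 for all genes, and Tuba1b, Tubb5 and Tubb6 lie at like fold changes but at higher levels.

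Lists of partner genes place the members in their pathway. Of 20 tested spindle partners 17 were lower and 2 higher, with a median log2 fold change of -0.95. Hmmr, a spindle pole adaptor (-1.67), Prc1, which bundles the midzone and binds Kif4 (-1.49), and Tpx2, which recruits Kif11 and Aurora A to the spindle (-1.46), were the 3 furthest changed. Numa1 (0.41) and Ckap5 (0.28), named after their values were seen, were the 2 that rose. Cenpe, a kinetochore kinesin whose symbol the rule does not match, was at -1.34 and was likewise named after its value was seen.

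Of 25 tested microtubule-associated proteins and stathmins 11 were higher and 6 lower, with a median of 0.13, and 2 of the 11 passed the filter only through SETD4 OE. Mapt, which encodes tau, went from a mean of 3.82 to 26.8 FPKM (log2 fold change 2.53), Tppp3, a microtubule-bundling protein, rose by 1.67 and Clasp2, a plus-end stabiliser, by 0.86. Of 13 tested kinesin light chains and adaptors 8 were higher and 2 lower (median 0.35), led by Plekhm2 (0.71) and Arl8a (0.51), which couple lysosomes to kinesins, and Trak1, a mitochondrial adaptor (0.48). Of 26 tested dynein and dynactin genes, the minus-end counterpart of the transport kinesins, 1 was higher and 8 lower, with a median of -0.05. Spdl1, a kinetochore adaptor of dynein that passed the filter only through the controls, fell by 1.53 on the log2 scale and the light chain Dynll1 by 0.68.

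Of 8 tested genes of tubulin folding and messenger RNA control, 2 were higher and 3 lower (median -0.15). The folding cofactors Tbca and Tbcb fell by 0.73 and 0.64 on the log2 scale, and Tbcel rose by 0.74. Of 18 tested tubulin-modifying enzymes 4 were higher and 3 lower with a median of 0.00, among them the glycylase Ttll3 (0.76), the acetyltransferase Atat1 (0.67) and Ttll12 (-0.70). Ttll3 and 1 more of the 4 that rose passed the filter only through SETD4 OE. Of 5 tested severing proteins 1 was higher and 2 lower, and Fignl1, a fidgetin-like ATPase, fell by 1.85. Each of these counts is to be read against the 26.0% of all tested genes called higher and the 33.9% called lower.

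Of the 67 members, 16 were too low to test. Without a filter on low values 3 of them, Kif27, Kif6 and Kif26b, were called, all higher, where 26.0% of 30911 genes were called in either direction. Kif26a, Kif12, Kif19b and Kif28 were not called in that fit. Tuba3a, Tuba3b and Kif2b had 0 reads everywhere.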

How the data were processed

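The 3 control and 3 SETD4 OE RNA-seq libraries were compared, grouped by their titles. The authors deposited FPKM values, 1 table for each group, beside the coordinates and length of every gene, per the file headers. Alignment used HISAT2 2.0.5 and mm39, per the submitters' processing notes. Not given in the sources used here are the counter, the annotation release and the strand setting. Multiplied by length, 100% of values were whole multiples of 1 read (tolerance 0.05 reads), which gave the reads per library. Within groups, libraries differed by chi-square per degree of freedom of 3.68 to 14.8, so no library was a duplicate of another. These values cannot tell separate cultures from separate libraries of the same RNA.

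Genes averaging 1 FPKM or more across the 6 libraries (12994) were compared on log2(FPKM + 1) with limma 3.58.1 (mean-variance trend, two-sided) in R 4.3.3, without a replicate block, with Benjamini-Hochberg adjustment over all of them. Members were read out of that fit. Members, classes and gene lists were chosen with earlier results of these data known. Values per library are given for the called members with the 4 largest absolute log2 fold changes of each class and for its most abundant member. Kif3a and Tubb3 fell outside that rule, and their values per library were added after they had been seen. Of each partner list, up to 3 called genes with the largest change are named. In simulated reads for this comparison (13036 genes tested), limma called 70 of 94 genes with a true 1.5-fold change, 95 of 96 with a true 3-fold change and 13 genes with none. Far fewer genes were changed in the simulation than passed in the data, so these rates need not hold for the data. Promoters came from RefSeq (GRCm38.p6) and shared stretches from GENCODE transcripts of GRCm38. Alternatives were pseudocount 0.1, a minimum mean of 5 FPKM, no filter, a replicate block, 4 other scalings, limma-voom on recovered reads and each library left out.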

Additional observations from a re-analysis of the deposited data

How the results depend on the processing

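Under 15 alternatives, 36 of 41 called members kept call and sign in every fit that tested them, all 13 tested mitotic kinesins among them, and 5 (Tubgcp2, Tubgcp3, Kif2a, Kif5b and Kif3b) lost the call in at least 1 without a change of sign. The cause was not tested. The median of the mitotic kinesins was -1.57 with a pseudocount of 0.1 and -1.58 with limma-voom on recovered reads, which adds less to low values. With a mean of at least 5 FPKM, fewer genes were tested, and 1881 of all genes, 7 members and 3 transport kinesins were higher, 6 mitotic kinesins (all tested) were lower, and the transport median was -0.21. That median was 0.078 with equal sums, 0.092 with the upper quartile and 0.046 with limma-voom, and 3 transport kinesins were lower with equal sums, upper quartile or quantile scaling. Equal sums and upper quartile moved the median of all genes from -0.06 to 0.06 and 0.07. Relative to those medians the mitotic kinesins remained lower, while the calls over all genes went from 3384 higher and 4406 lower to 4261 and 3351 (equal sums) and 4405 and 3259 (upper quartile). The signs that turned belonged to 7 members that did not pass. With equal sums, then median of ratios, then the upper quartile, then quantile scaling, then limma-voom, Tubb4b was at 0.072, 0.0078, 0.089, 0.17 and 0.0088, Kif21b at 0.085, 0.025, 0.10, 0.071 and 0.028, and Kif13a at 0.070, 0.012, 0.085, 0.038 and 0.014. Tuba1a was at 0.064 with quantile scaling, Tubgcp6 at 0.025 (equal sums) and 0.037 (upper quartile), and Tubgcp5 at -8.2e-05 (pseudocount), -0.015 (quantile) and -0.083 to 0.066 as each library was left out. Kif16b was at 0.086 with equal sums, 0.043 with median of ratios, 0.10 with the upper quartile and 0.078 with limma-voom, and at -0.091 to 0.042 as each library was left out. Of the 10 uncalled members, 3 were called under at least 1 alternative: Tubb4b (quantile, higher), Tubgcp4 (3 scalings and limma-voom, higher) and Kif1c (without control replicate 1, lower). Leaving out each library gave 2895 to 3316 genes higher and 3788 to 4524 lower, 13 members higher and 25 to 29 lower, 13 mitotic kinesins lower, and 6 transport kinesins higher and 4 to 6 lower. Deviations of same-numbered libraries correlated at -0.07, -0.23 and 0.08, and not every library correlated best with its own number. With 3 libraries per group, these values cannot settle whether replicate numbers pair the samples. With the number as a replicate block, 2993 genes were higher and 3948 lower, and 13 members were higher and 26 lower, with 4 transport kinesins lower.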
